A study of Mus musculus with 48 samples.

Results

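The genes described here are those named for the proteins of the cytosolic ribosome. They were chosen by symbol, as Rpl or Rps followed by a digit, or Rplp0, Rplp1, Rplp2 or Rpsa, without rows ending in -ps and without the Rps6k kinases, and this gave 80 of the 39637 genes in the table. GENCODE M21 annotates 75 of the 80 as protein coding and Rps3a2, Rps3a3, Rps4l, Rpl37rt and Rps12l1 as processed pseudogenes. Of these, 39 are named for core proteins of the large subunit, 26 for core proteins of the small subunit and 3 for the stalk, while 10 are grouped as paralogs and 2 as other copies. Rpl10l and Rps12l1 had no count in any library, and the other 78 passed the filter on low counts in every comparison. Of 77 core and stalk names listed, 9 are not analysed here.

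RNA was sequenced from whole subcutaneous tumours of 48 female BALB/c mice aged 8 to 9 weeks, 1 mouse per library. AB1 is a mouse mesothelioma line, and its 24 tumours were taken out on day 8. Renca is a mouse kidney cancer line, and its 24 tumours were taken out on day 10. All tumours were removed before antibodies against CTLA4 and PD-L1 were given, and each line had 12 mice that later responded and 12 that did not. Both lines were grown under the skin, not in the pleura or kidney. Library totals ran from 16.4 to 27.8 M counts. The kidney cadherin Cdh16 reached 136 CPM or more in every Renca library and at most 0.135 CPM in AB1 libraries. Other renal tubule markers differed. Aqp1 had medians of 388 and 496 CPM in AB1 responders and non-responders, against 130 and 135 CPM for Renca. Of 7 such markers tested, 5 were lower and 2 higher in AB1. The sum of the 10 in the table overlapped between the lines, with medians of 390 and 500 CPM in AB1 and 445 and 522 CPM in Renca. Markers of mesothelium, of which 7 of 10 were in the table, summed to a median of only 2.46 CPM in AB1 responders and 3.09 CPM in AB1 non-responders, against 3.31 and 3.14 CPM for Renca, so they did not mark the AB1 tumours.

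A ribosome joins a small subunit, which reads the mRNA, to a large subunit, which forms the peptide bond. The stalk of the large subunit recruits the elongation factors. Most ribosomal protein mRNAs start with a C followed by a run of pyrimidines, the terminal oligopyrimidine (TOP) motif, through which the kinase mTOR and the RNA-binding protein Larp1 control their translation, and their genes are known targets of Myc.

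RefSeq (GRCm38.p6) start sites were searched for a pyrimidine tract near the start, which is a looser rule than a C at the first base. Promoter entries matched 59 of the 80 genes, 51 of them core or stalk genes. The windows below run from 25 bases before the annotated start. They are shown for some genes described in the results and for Rpl28, and most of those shown hold a tract. Rpl28 and Rplp2 were chosen after values were seen. Capitals mark the tract (a C and at least 4 further C or T, starting within 15 bases of the start). The Rps28 window holds none, nor do those of Rpsa and Rpl10. Rpl22 has a tract at 1 annotated start and none at its other start.
Rplp2, chr7:141447626-141447675, plus strand: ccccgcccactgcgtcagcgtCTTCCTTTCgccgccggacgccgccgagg
Rps6, chr4:86857343-86857392, minus strand: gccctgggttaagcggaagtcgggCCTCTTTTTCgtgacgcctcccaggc
Rpl28, chr7:4792940-4792989, plus strand: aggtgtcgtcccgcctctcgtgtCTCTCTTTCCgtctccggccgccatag
Rps27, chr3:90213624-90213673, minus strand: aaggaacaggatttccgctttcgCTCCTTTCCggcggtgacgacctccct
Rps27rt, chr9:114982715-114982764, minus strand: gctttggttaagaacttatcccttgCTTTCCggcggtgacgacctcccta
Rps28, chr17:33824538-33824587, minus strand: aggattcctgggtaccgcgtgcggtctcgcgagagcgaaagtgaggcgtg
A tract was found in 35 of 51 core and stalk genes (68.6%) and in 44.9% of the 27025 genes with an entry. The letters CCGGAAG, on either strand, were in 21 of 51 (41.2%) against 9.93% of all genes. AAGATGG, on either strand, was in 7 of 51 (13.7%) against 7.28%. A match describes the letters only and shows no bound factor.

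Ribosomal protein genes took a larger share of the counts in AB1 than in Renca tumours. The share was lowest at 3.04%, 3.87% at the median and 4.26% at the highest in AB1 non-responders, and 2.97%, 3.25% and 3.76% in AB1 responders. The same values for Renca were 2.36%, 2.46% and 2.60% in non-responders. Those of its responders were 2.38%, 2.64% and 2.95%. Every AB1 library lay above every Renca library, while responders and non-responders overlapped within each line, with the lower median in AB1 responders and the higher in Renca responders. In whole tumours, fewer cells of a type and less RNA per cell cannot be told apart. Rows ending in -ps, left out of these sums, held a median of 1.39% in AB1 non-responders and 0.866% in Renca non-responders.

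**Figure D1:**
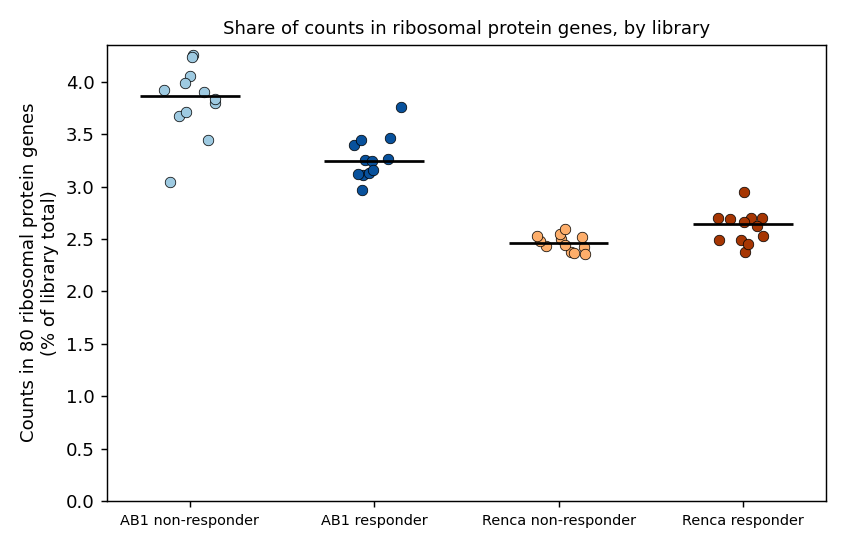
Each point is 1 library and shows its counts in the 80 ribosomal protein genes as a percent of the library total, for the 4 groups of 12, with the group median as a line. The AB1 medians are 3.87% and 3.25% and the Renca medians 2.46% and 2.64%.

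Levels between genes were set per kilobase of exon length. Over 48 libraries, the stalk gene Rplp1 had the highest median, 1409 CPM per kb, followed by Rps3a1 at 799.9 and Rps15 at 782 CPM per kb. Core genes among the 10 highest also included Rpl41 at 676, Rpl19 at 637, Rps29 at 596, Rps4x at 528, Rpl4 at 520.4, Rpl32 at 472 and Rps6 at 408 CPM per kb. At the other end lay Rpl13a at 19.9, Rpl35a at 13.9, Rps2 at 7.12, Rpl21 at 1.90 and Rpl29 at 0.564 CPM per kb. The transcripts of Rps2, Rpl21 and Rpl29 share 50-base stretches with 71, 82 and 82 other genes, so their low values are uncertain. Such stretches made up 71.3%, 26.2% and 66.2% of these transcripts. Some of the highest genes shared as much, with 71.0% in Rps3a1, 79.3% in Rpl19, 72.2% in Rps4x and 84.6% in Rps6. Others shared less, down to 16.5% in Rpl4. The high values of the former are therefore uncertain too. Per kilobase of a reference transcript, 7 of the 10 highest and 4 of the 5 lowest core genes were shared with these lists. The exception among the lowest was Rpl35a, at 94.7 CPM per kb by that length.

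AB1 responders had lower levels of many ribosomal protein genes than AB1 non-responders. By edgeR's quasi-likelihood test, 39 of 78 were lower and 2 higher, where 30.1% of all 15388 genes tested were lower and 29.6% higher. The share changed in either direction, 41 of 78, was below the 59.7% of all genes. The median log2 fold change was -0.10, against -0.021 over all genes tested. In no gene did the 12 libraries of 1 group all lie beyond those of the other, which held in 1.98% of all genes with responders above and 0.786% with responders below. By role, 20 of 39 large subunit core genes, 14 of 26 small subunit core genes and all 3 stalk genes were lower.

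The stalk scaffold Rplp0 ranged from 1268 CPM through a median of 1550 to 1752 CPM in AB1 non-responders and from 1090 through 1189 to 1444 CPM in responders. The groups overlapped, with responders lower at the median, and the log2 fold change was -0.27 ± 0.05 (SE, adjusted p = 3.97e-05). Rplp1 changed by -0.23 ± 0.05 and Rplp2 by -0.21 ± 0.059. Rps19, the small subunit protein whose human gene is mutated in Diamond-Blackfan anaemia, had the smallest p of the 78 genes. It ranged from 371 through 474 to 552 CPM in non-responders and from 330 through 371 to 452 CPM in responders, and changed by -0.28 ± 0.05 (adjusted p = 3.05e-05). Here too the groups overlapped.

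The largest falls among core genes also held Rpl21 (-0.35 ± 0.084), Rpl41 (-0.29 ± 0.058), Rps21 (-0.26 ± 0.066) and Rpsa (-0.26 ± 0.054), the last also known as a laminin receptor. Rpl13a fell by 0.21 and Rpl22 by 0.17 on the log2 scale. With the first flow cell alone, the calls of Rpl21, Rps21, Rpsa, Rpl13a, Rpl22 and Rps6 did not pass. Rps6, the substrate of the S6 kinases, fell by 0.10 (adjusted p = 0.0463), a call also lost with no filter and without AB1 responder replicate 1 or 6. Rpl5 and Rpl11, which bind Mdm2, had log2 fold changes of -0.081 ± 0.042 and -0.034 ± 0.04 that did not pass, nor did Rpl39 (-0.14 ± 0.065) or Rps27 (0.045 ± 0.049).

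Within flow cells the AB1 result was uneven. In the first flow cell, 8 of 78 genes were lower and 0 higher (by raw p below 0.05, edgeR had 1 higher, and DESeq2 was not fitted to single flow cells), with a median of -0.053 against -0.045 over all genes, of which 5816 of 15480 were called in either direction. In the second, 42 were lower and 2 higher, with a median of -0.15 against -0.0097, and 7725 of all 15448 genes were called. Markers of leukocytes rose in AB1 responders, 14 of 14 in the table, and their summed level had a median of 5504 CPM (3290 to 7299) in responders and 2555 CPM (1830 to 3301) in non-responders, with none at 0. Of 18 proliferation genes, 14 were lower in responders. Over all genes, 29.6% were higher and 30.1% lower. The part of either in the ribosomal result was not tested.

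Renca responders had higher levels of most ribosomal protein genes. By edgeR's quasi-likelihood test, 52 of 78 were higher, where 11.6% of all 15409 genes tested were higher, and 0 were lower, where 8.01% of all genes were. At an unadjusted p under 0.05, 1 was lower, and DESeq2 called 0 lower and 57 higher. The median log2 fold change was 0.11, against -0.0059 over all genes. No gene separated the groups without overlap, and over all genes 0.00649% did, with responders below. By role, 26 of 39 large subunit core genes, 21 of 26 small subunit core genes and 2 of 3 stalk genes were higher.

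Rps20 had the largest rise. It ranged from 256 through a median of 291 to 335 CPM in Renca non-responders and from 311 through 338 to 392 CPM in responders, an overlap at the edges, with a log2 fold change of 0.22 ± 0.04 (adjusted p = 0.00312). Rps9, of smallest p, ranged from 523 through 605 to 684 CPM and from 599 through 679 to 741 CPM, and rose by 0.20 ± 0.035. Rpl26 (0.20 ± 0.037), Rps4x (0.20 ± 0.039), Rps15a (0.18 ± 0.035) and Rps29 (0.18 ± 0.037) followed. Rpsa rose by 0.15, Rplp0 by 0.14, Rpl5 by 0.15, Rps6 by 0.15, Rps27 by 0.15, Rpl39 by 0.16 and Rps19 by 0.092. Rpl11 (0.095 ± 0.032, adjusted p = 0.0415) lost its call without any 1 of 14 libraries. Rpl13a (0.066 ± 0.049), Rpl22 (0.078 ± 0.029) and Rpl41 (0.027 ± 0.031) did not pass.

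Fewer Renca calls passed with RNA purity covariates, and fewer within single flow cells, which hold fewer libraries. With the RNA 260/280 and 260/230 ratios as covariates, 5 genes were called higher and the median was 0.076, and over all 15409 genes the number called fell from 3027 to 224. The 260/230 ratio had a median of 2.01 in responders and 2.16 in non-responders. In the first flow cell edgeR called 0 of the 78 genes, and 0 of all 15590 genes tested. By raw p below 0.05, 38 of the 78 were higher there, 2803 of all genes passed in either direction, and the members' median was 0.095. In the second flow cell 15 were higher, with a median of 0.13, and 1253 of all 15299 genes were called. Of the 78, 73 lay above 0 in the first flow cell and 75 in the second. Leukocyte markers rose here too, 14 of 14, with a summed median of 2865 CPM (2374 to 3842) in responders and 2140 CPM (1808 to 2919) in non-responders. Their part in the result was not tested.

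The response effects of both lines were compared in 1 fit of all 48 libraries. The effect was lower in AB1 than in Renca for 68 of 78 genes, where 26.6% of all 16509 genes tested were lower, and higher for 0, where 18.5% were (1 at an unadjusted p under 0.05, and 1 by DESeq2). The median difference was -0.29, against -0.069 over all genes. Among core and stalk genes it was largest for Rplp0 (-0.47 ± 0.061, adjusted p = 1.43e-07), Rpsa (-0.47 ± 0.068), Rplp1 (-0.46 ± 0.071), Rpl36a (-0.44 ± 0.07), Rps19 (-0.43 ± 0.057) and Rps21 (-0.40 ± 0.083). Of the 39 genes lower in AB1 responders, 27 (69.2%) were among the 52 higher in Renca responders, of which they made up 51.9%. These shares lie near those over all 78 genes, of which 52 were higher in Renca and 39 lower in AB1. The separate fits of the 2 lines share no library.

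**Figure D2:**
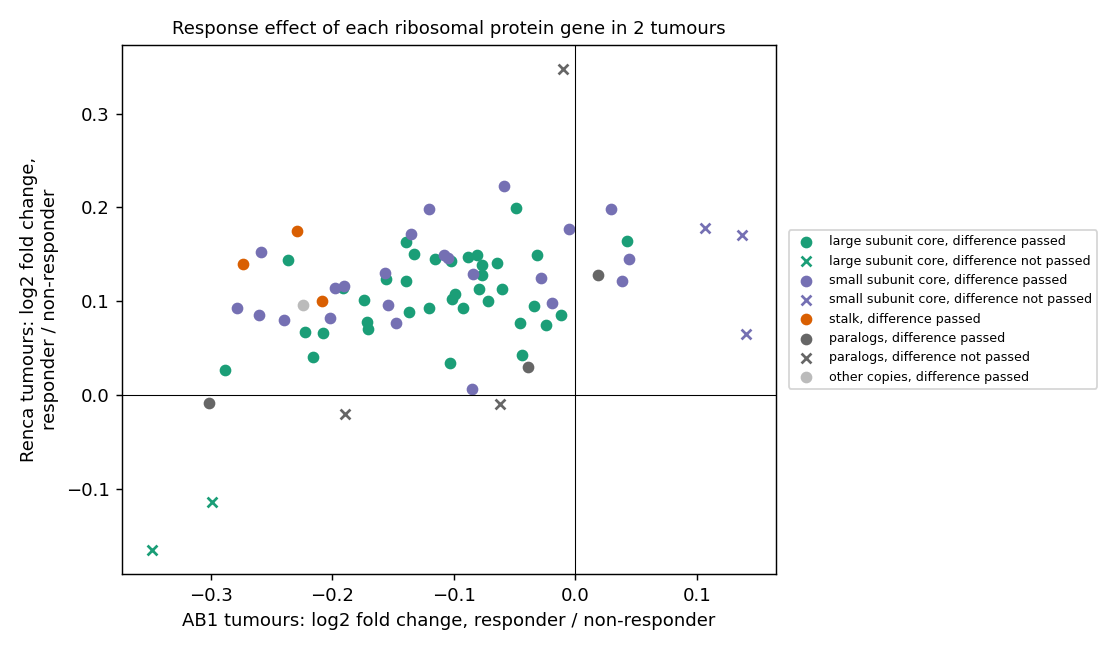
Each point is 1 gene, at its log2 fold change of responders over non-responders in AB1 (x axis) and in Renca (y axis), coloured by role, with crosses where the difference between the lines did not pass. Of 78 genes, 63 lie below 0 in AB1 and above 0 in Renca; Rpl3l, Rps3a2 and Rps3a3 lie outside the axes and are not drawn.

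AB1 tumours had higher levels than Renca tumours across both subunits. By edgeR's quasi-likelihood test, 68 of 78 genes were higher, where 42.1% of all 16509 genes tested were, and 5 were lower, where 39.2% were. The median log2 fold change was 0.48, against 0.030 over all genes. In 33 genes every AB1 library lay above every Renca library, as in 8.12% of all genes, and in 1 gene every AB1 library lay below, as in 13.0%. Flow cell, day of removal and tumour line cannot be told apart here.

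Rps20, of smallest p, had medians of 582 and 634 CPM in AB1 responders and non-responders and of 338 and 291 CPM in the same groups of Renca. No AB1 library, from 539 CPM up, overlapped a Renca library, at most 392 CPM, and the log2 fold change was 0.95 ± 0.04 (adjusted p = 2.02e-26). The other large rises among core and stalk genes were Rps2 (1.65 ± 0.14, of uncertain level), Rpl13 (0.99 ± 0.044), Rps4x (0.92 ± 0.043), Rpl39 (0.89 ± 0.05) and Rpsa (0.84 ± 0.049). Rps28 went the other way. It ranged from 156 to 242 CPM in AB1 and from 263 to 307 CPM in Renca with no overlap, a log2 fold change of -0.56 ± 0.03 (adjusted p = 1.44e-20). Rpl21 was also lower in AB1 (-0.45 ± 0.059). Rpl11, Rpl19 and Rpl27 did not pass.

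**Figure D3:**
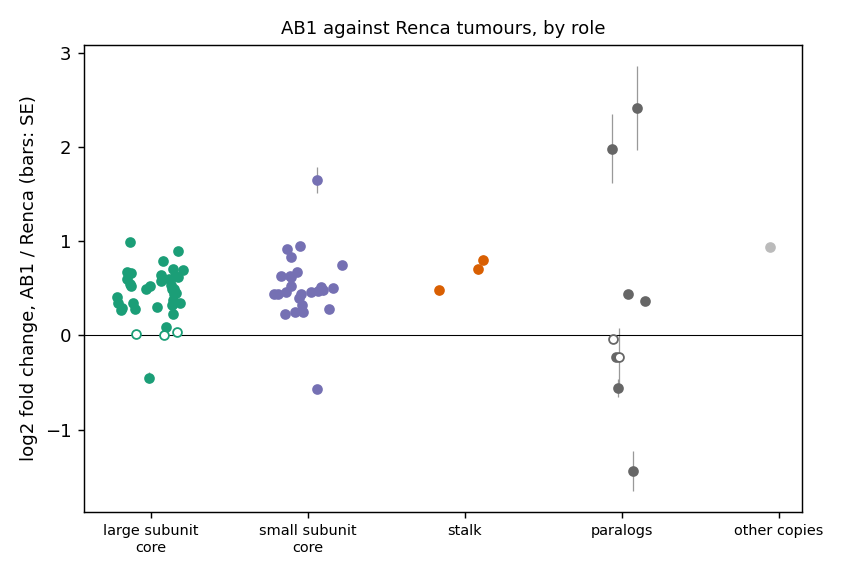
Each point is 1 gene at its log2 fold change of AB1 over Renca tumours, with its SE as a bar, grouped by role, filled where it passed and open where it did not. Most points lie above 0, and the small subunit core gene lowest in AB1 is Rps28 at -0.56.

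The paralogs did not share one pattern. Rps27l, a known p53 target, fell in AB1 responders (-0.30 ± 0.059, adjusted p = 0.000135), from a median of 109 CPM (81.9 to 134) to 83.8 CPM (71.4 to 100.5). This call did not pass with the first flow cell alone (adjusted p = 0.064). In Renca responders the gene had a log2 fold change of -0.0084 ± 0.026. Its transcript is 73.0% identical to that of Rps27 over the aligned bases. Rps27rt is identical to Rps27 over 341 aligned bases, so reads of the pair could be divided between them, and it rose in Renca responders by 0.13 on the log2 scale. Rpl22l1, a paralog of Rpl22, passed in no comparison. Rpl36al was lower in AB1 than in Renca (-0.23 ± 0.025). Rpl39l, known from the testis, was lower in AB1 (-1.44 ± 0.21) at medians of 1.45 and 1.77 CPM against 4.97 and 5.37 CPM. Rps4l was lower in AB1 (-0.56 ± 0.097) and higher in Renca responders (0.35 ± 0.12, adjusted p = 0.0373), a call lost without any 1 of 11 libraries. Rpl10l had no count.

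Rpl3l, a paralog of Rpl3 used in heart and skeletal muscle, ranged from 0.290 to 12.0 CPM in AB1 non-responders and from 0.336 to 4.70 CPM in responders. In Renca it ranged from 0.738 to 4.86 CPM in non-responders and from 0.538 to 6.71 CPM in responders. The log2 fold change of responders was -0.83 in AB1 and 0.72 in Renca, and neither passed. The response effect of Rpl3l was lower in AB1 than in Renca (-1.60 ± 0.56, adjusted p = 0.017). This call was lost with the RNA purity ratios as covariates and without the 2 AB1 non-responders of 260/230 under 1.6, the latter a setting added after seeing the data. In 3 of the 4 groups the library highest in Rpl3l was also highest in the sum of 14 skeletal muscle markers, and in Renca responders it was the third. In AB1 non-responders that library was replicate 3, which also had the lowest 260/230 ratio, 1.08, and the lowest ribosomal share of its group, 3.04%. The marker sum ran from 58.5 to 4065 CPM in AB1 non-responders and, among Renca responders, from 48.2 to 3118 CPM, with no marker at 0. The part of muscle in the Rpl3l result was not tested.

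Rps3a2 and Rps3a3 are processed pseudogenes of Rps3a1 by GENCODE M21 (GRCm38), at chr14:88123017-88123808 and chr13:108670603-108671397, while Rps3a1 lies at chr3:86137940-86142702. The stretch below, 60 bases of each transcript, shows how little separates them. Capitals mark bases that differ from Rps3a1.
Rps3a1: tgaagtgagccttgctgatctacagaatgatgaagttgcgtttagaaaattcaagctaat
Rps3a2: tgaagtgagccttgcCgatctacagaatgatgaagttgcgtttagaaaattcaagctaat
Rps3a3: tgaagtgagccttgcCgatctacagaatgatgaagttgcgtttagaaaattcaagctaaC
Rps3a2 differs from Rps3a1 at 4 of 792 aligned bases and Rps3a3 at 9 of 795. Rps3a2 lay between 49.5 and 367 CPM in 5 of 12 AB1 responders and 2 of 12 AB1 non-responders, and at no more than 13.7 CPM in the other AB1 libraries and 13.4 CPM in all Renca libraries. Rps3a3 lay between 38.3 and 228 CPM in 6 of 12 AB1 responders and 2 of 12 non-responders, and at no more than 14.3 CPM in the other AB1 libraries and 13.9 CPM in Renca. The split was drawn after the values were seen, above 2 times the highest Renca library. In AB1 responder replicate 4, Rps3a3 was at 155 CPM while Rps3a2 was at 5.95 CPM, its lowest. Rps3a1 showed no such jump, at 770.2 to 1183 CPM over AB1 libraries. Rps3a3 was called higher in AB1 responders (1.65 ± 0.65, adjusted p = 0.0334), a call lost without any 1 of 13 libraries and under 5 other alternatives, among them the replicate block (1.18, adjusted p = 0.144). Rps3a2 did not pass (1.75 ± 0.85). Among genes with a median of 20 counts or more in a group, no other of the 80 had a library at 5 times its group's median.

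**Figure D4:**
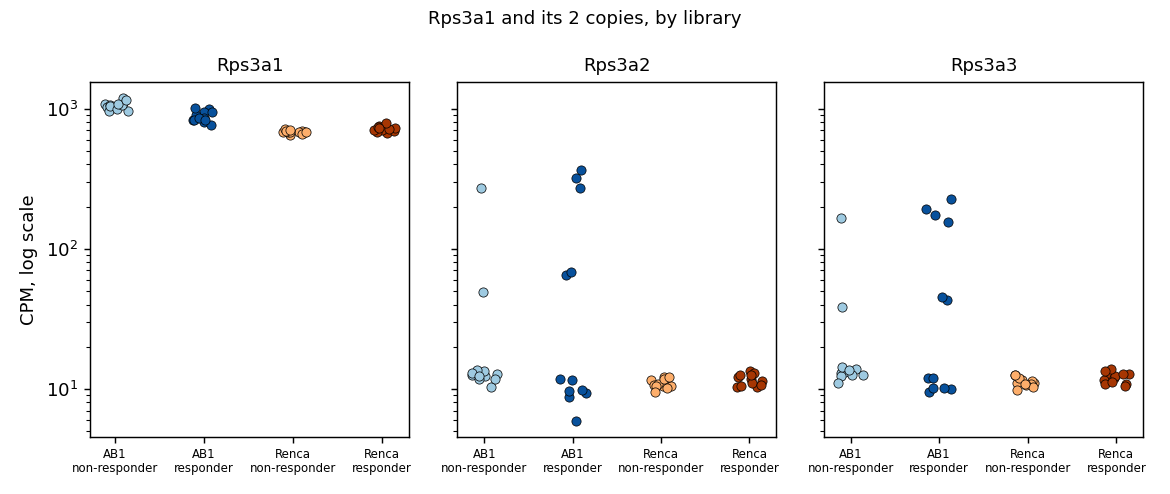
Each point is 1 library and shows CPM on a log axis for Rps3a1, Rps3a2 and Rps3a3 in the 4 groups of 12. Some AB1 libraries reach 367 CPM for Rps3a2 and 228 CPM for Rps3a3, while all Renca libraries lie at or below 13.9 CPM for both copies.

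Rack1, a small subunit scaffold outside the symbol rule, fell in AB1 responders (-0.16 ± 0.042) and rose in Renca responders (0.14 ± 0.031). Of 13 elongation factor and other TOP genes, 9 were lower in AB1 responders, 5 were higher in Renca responders, and 13 were higher in AB1 than in Renca tumours. The shares over all genes were 30.1%, 11.6% and 42.1%. Among them, the elongation factor subunits Eef1d and Eef1g fell in AB1 (-0.37 ± 0.058 and -0.31 ± 0.054), while Eef1a1 rose in Renca (0.16 ± 0.034). Pabpc1, the poly(A)-binding protein, was higher in AB1 tumours (0.87 ± 0.043), as was Tpt1 (0.15 ± 0.039).

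Of 41 genes that build ribosomes, 34 were lower and 2 higher in AB1 responders, where 30.1% of all genes were lower and 29.6% higher. In Renca responders edgeR called 0 of the 41, with 9 lower and 2 higher by raw p below 0.05, and DESeq2 called 3 lower. The endonuclease gene Nob1 (-0.34 ± 0.046) and Nop16 (-0.47 ± 0.069) fell in AB1. Npm1, the nucleolar chaperone, fell in AB1 responders (-0.33 ± 0.074). Of 11 RNA polymerase I genes, 9 were lower and 1 higher in AB1 responders, and 1 lower in Renca responders. Of 25 initiation factors, 13 were lower and 2 higher in AB1, and 3 lower and 2 higher in Renca. In Renca 8.01% of all genes were lower and 11.6% higher, so the counts of both lists there lie near the background. Of 67 mitochondrial ribosomal protein genes, 32 were lower and 2 higher in AB1 responders and 4 lower in Renca responders, the last again near the 8.01% of all genes. Against Renca tumours, AB1 had 23 of the 67 higher and 37 lower, where 42.1% of all genes were higher and 39.2% lower.

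Of 12 genes of mTOR and TOP control, 5 were higher and 1 lower in AB1 responders, and of 10 transcription factors of ribosome genes, 4 were higher and 1 lower. Over all genes, 29.6% were higher and 30.1% lower, so the numbers higher lie near the background. Larp1 (0.22 ± 0.038) and Mtor (0.14 ± 0.038) rose there. Myc fell in AB1 responders (-0.31 ± 0.11, adjusted p = 0.0143) and had a log2 fold change of 0.018 ± 0.091 in Renca. Mxd1, which opposes Myc, rose in AB1 (1.83 ± 0.22). Of 12 p53 targets, 8 were lower and 1 higher in AB1 responders, against the same shares over all genes, with Phlda3 among the falls (-0.84 ± 0.12).

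Within groups the core genes varied less at the median than all genes tested, and they varied together. The SD of log2 CPM had a median of 0.12 in AB1 non-responders, 0.10 in AB1 responders, 0.093 for Renca responders and 0.069 for Renca non-responders, against 0.17, 0.17, 0.14 and 0.13 over all genes tested. Rps2 was the most variable core gene in each group. Of the variance within groups of the 63 core and stalk genes at a median of 50 CPM or more, the first component held 67.3%, and all 63 genes had the same sign on it. Neither the SD nor the component was set beside other genes of like level. Whether either is particular to ribosomal genes was therefore not tested. Core and stalk genes with under 50% of their 50-base stretches in other genes, 39 of 68, had medians of -0.12 in AB1 and 0.12 in Renca responders, and the other 29 had -0.099 and 0.11.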

How the data were processed

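The authors deposited raw counts per gene, whole numbers with no normalization, for 48 libraries. HISAT2 2.0.4, StringTie 1.3.0 and bcl2fastq 2.18.0.12 appear in the submitters' processing notes, beside human genome builds. For the mouse build, the counting tool and strandedness, the answer is not given in the sources used here. Counts were fitted over all genes with edgeR 4.0.16 (R 4.3.3): TMM scaling, filterByExpr on the groups, quasi-likelihood F tests, and p-values adjusted by Benjamini and Hochberg's method with a threshold of 0.05. Flow cell was a term in the response fits, and response in the fit of AB1 against Renca. SE is the log2 fold change over the square root of F. CPM uses TMM-scaled totals, and levels per kb use GENCODE M21 exon length. Each group has 12 mice, and totals ran from 16.4 to 27.8 M counts. Alternatives were other scalings, DESeq2 1.42.0, no filter, other terms and left-out libraries. The fit was tested on simulated data.

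The genes and lists were chosen with earlier results of these data known. Named genes were the paralogs, up to 6 largest rises and 6 largest falls among passing core and stalk genes, the smallest p, the 10 highest and 5 lowest core genes per kb, up to 3 genes of smallest p from each other list, and a set named whatever its values. Not all of these are printed, and some are not reported here. Rpl28 and Rplp2 were chosen for their start windows after values were seen. The 5-fold and 2-fold limits for jumps, the 50% limit on shared stretches and the 50 CPM limit were set after values were seen. Responders and non-responders of the same number shared a lane in 24 of 24 pairs per the labels. In each line the pairs numbered 9 to 12 also shared a lane with one another, so a number does not always mark its own batch. The deviations of paired libraries correlated from -0.128 to 0.534, over 0.1 in 11 of the 24 pairs.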

Additional observations from a re-analysis of the deposited data

Results flagged for a closer look

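The response effect differed between AB1 and Renca tumours, by the test of the difference in edgeR, for 68 of 78 ribosomal protein genes, all lower in AB1. Over all 16509 genes tested, 26.6% were lower and 18.5% higher. The members' median was -0.29, against -0.069 over all genes. With scaling without the ribosomal genes these medians were -0.20 and 0.021. Relative to the all-gene median, the members' median was -0.22 under both scalings. Among stalk genes the log2 difference was -0.47 for Rplp0 and -0.46 for Rplp1. Among small subunit genes it was -0.47 for Rpsa, -0.43 for Rps19, -0.40 for Rps21, -0.31 for Rps6 and -0.16 for Rps27. Among large subunit genes it was -0.44 for Rpl36a, -0.36 for Rpl39, -0.33 for Rpl13a, -0.31 for Rpl22, -0.29 for Rpl5 and -0.19 for Rpl11. Among paralogs it was -1.60 for Rpl3l, -0.35 for Rps27l, -0.17 for Rps27rt and -0.13 for Rpl36al. The calls of Rpl11, Rpl36al, Rpl3l, Rps27 and Rps27rt were each lost under at least 1 alternative, and the cause was not tested. The fit of the difference was not repeated with single libraries left out.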

How the results depend on the processing

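In AB1 responders, against 39 genes lower and 2 higher, upper quartile scaling and library totals alone each gave 64 lower and 1 higher. These moved the all-gene median from -0.021 to -0.11 and -0.13; relative to it the members' median was -0.083 and -0.084, against -0.082. The fit of all 48 libraries gave 63 lower, with an all-gene median of -0.093 and a members' median of -0.078 relative to it. The first flow cell alone gave 8 lower and 0 higher. The number higher was 1 with scaling without the ribosomal genes, no filter, no flow cell term or the replicate block, and 0 with RNA purity covariates or without the 2 non-responders of 260/230 under 1.6, a setting added after seeing the data. Leaving out 1 library gave 35 to 49 lower and 0 to 3 higher.

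In Renca responders, against 52 higher, library totals alone gave 31, RNA purity covariates 5, the first flow cell 0, the second 15 and the fit of all 48 libraries 20. That last fit called 820 of all 16509 genes, against 3027 of 15409. Relative to the all-gene median, the members' median was 0.12 in it and with library totals alone, as in the main fit. With RNA purity covariates it was 0.078. Leaving out 1 library gave 38 to 58 higher and 0 to 1 lower. For the difference between lines, DESeq2 gave 1 gene higher against 0. Rpl11 in AB1 against Renca turned from 0.0085 to -0.089 with responders alone. The replicate block changed the calls of Rps3a3 in AB1 and of Rps4l in the difference (-0.43, adjusted p = 0.0182), and no other named call. Causes were not tested.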
